A study of Mus musculus with 6 samples.

Results

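The ISG15 conjugation system was examined in whole brain as 6 transcripts of the 37310 genes counted. The members were taken by gene symbol and follow the order of the pathway. They are *Isg15* (the modifier), *Uba7* (the activating enzyme, E1), *Ube2l6* (the conjugating enzyme, E2), *Herc6* (the ligase, E3), *Usp18* (the protease) and *Rnf213* (a ligase that binds ISG15). RNA sequencing was performed on 3 libraries for each of 2 genotypes, from male C57BL/6 mice of 12 weeks. The *Adar1* E861A group was homozygous for a point mutation that abolishes RNA editing by ADAR1 (*Adar1* E861A/E861A *Ifih1*-/-). The *Adar1* WT group was *Adar1*+/+ *Ifih1*-/-. Both genotypes therefore lacked MDA5, the cytosolic sensor of double-stranded RNA encoded by *Ifih1*, and neither is a fully wild-type brain. The comparison asked how loss of ADAR1 editing alters these transcripts once MDA5 is absent.

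ISG15 is a ubiquitin-like protein that is joined to other proteins through its own chain of enzymes. UBA7 activates it, UBE2L6 carries it, and in mice HERC6 is the main ligase that transfers it to targets. USP18 removes ISG15 from its targets and, separately, binds the interferon receptor chain IFNAR2 and limits type I interferon signalling. RNF213 is a very large AAA+ ATPase and ubiquitin ligase that binds ISG15 and is known in humans as a susceptibility gene for moyamoya disease, a disorder of brain arteries. Type I interferon induces genes of this system through the transcription factor complex ISGF3, which binds a DNA element termed the interferon-stimulated response element (ISRE).

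The sequences just upstream of the members are shown because the ISRE is the element through which this system is classically induced. RefSeq promoters (build GRCm38.p6, 250 bases before to 50 after the start) were found for 5 of the 6 members, all but *Usp18*. The stretch from 103 to 32 bases before the start is printed for each, 5′ to 3′ on the strand of the gene, with matches to the ISRE core in capitals. The core was searched as GAAA, any 2 bases, and GAAA again. The windows lie at chr4:156200850-156200921 (minus strand) for *Isg15* and, on the plus strand, at chr11:119389996-119390067 for *Rnf213*, chr6:57580889-57580960 for *Herc6*, chr9:107975464-107975535 for *Uba7* and chr2:84798725-84798796 for *Ube2l6*.
Isg15: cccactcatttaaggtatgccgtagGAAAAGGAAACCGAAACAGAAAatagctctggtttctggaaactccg
Rnf213: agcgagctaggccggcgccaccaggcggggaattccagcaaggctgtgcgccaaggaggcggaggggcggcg
Herc6: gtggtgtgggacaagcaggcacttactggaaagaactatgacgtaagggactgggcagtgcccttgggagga
Uba7: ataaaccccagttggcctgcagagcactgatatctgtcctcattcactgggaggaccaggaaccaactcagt
Ube2l6: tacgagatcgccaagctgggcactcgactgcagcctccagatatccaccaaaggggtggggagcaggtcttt

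The *Isg15* promoter held 3 matches, which overlap each other in 1 run that begins 78 bases before the start. Both strands of the 300 bases were searched, and the other four promoters held 0 matches. Over all 32851 mouse promoters in the table, 3.44% held at least 1 match. A second interferon element, the GAS motif TTCNNNGAA, was found in 8.3% of all promoters and in 0 of these 5. A match or its absence in this window is a description of the letters and shows no binding.

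The libraries held 26853488 to 38076753 counts. *Ifih1*, disrupted in both genotypes, kept 38 to 56 counts per library, and a point mutation in *Adar* cannot be seen in a gene count. Markers of neurons, astrocytes and oligodendrocytes were abundant in each library. Neuron markers summed to 4058 to 4171 CPM (counts per 1000000 counts of the library) in *Adar1* E861A and 4197 to 4282 CPM in WT libraries. For astrocyte markers the sums were 5247 to 5470 and 4601 to 4829 CPM, and for oligodendrocyte markers 4341 to 4595 and 4253 to 4617 CPM. *Adar1* E861A replicate 1 stood apart in pituitary hormone transcripts, which summed to 439.8 CPM there and to 2.05 to 3.10 CPM in the WT libraries, so values without it are also given. Of the genes that reached 2 CPM in 3 of 3 libraries of either genotype, 0.41% rose in *Adar1* E861A brain by edgeR's quasi-likelihood test at an adjusted p under 0.05. With the more lenient filterByExpr filter this share was 0.449%, or 0.568% for calls in either direction.

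Of the 6 members, 3 rose in *Adar1* E861A brain: *Usp18*, *Isg15* and *Rnf213*. The modifier and its protease rose most, by 2.40-fold and 3.49-fold, and *Rnf213* by 1.67-fold. The 3 enzymes that carry ISG15 to its targets, *Uba7*, *Ube2l6* and *Herc6*, were 1.51-fold, 1.24-fold and 1.33-fold higher and did not pass the test. For *Herc6* this depended on the filter. Its adjusted p in the quasi-likelihood test was 0.0523 with the CPM filter and 0.0242 with filterByExpr, under which all 6 members were tested. For 5 of the members each *Adar1* E861A library lay above each WT library, a separation seen in 6.98% of genes with the CPM filter and 7.25% with filterByExpr. The reverse order was seen in 6.81% and 5.91% of genes and in 0 members. *Isg15* and *Uba7* missed the CPM filter and were read with filterByExpr, and *Usp18* passed the CPM filter through its *Adar1* E861A libraries alone. Over all 6 members the median log2 fold change was 0.66 with filterByExpr, against 0.0001 over all 19366 genes tested.

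**Figure D1:**
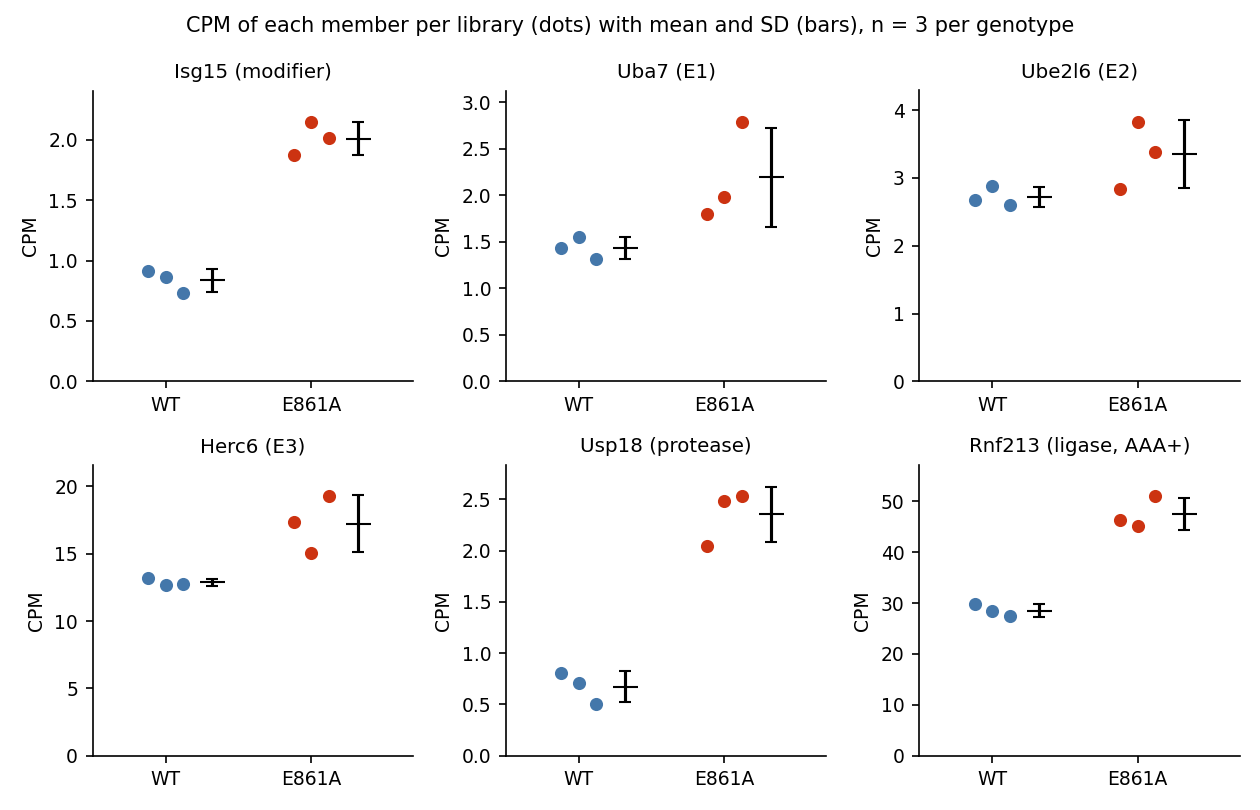
CPM (y axis) of the 6 members in each library, with 1 dot per library and bars for the mean and SD (n = 3 per genotype). The *Adar1* E861A libraries (red) lie above the WT libraries (blue) without overlap in each panel except that of *Ube2l6*.

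*Isg15* (ENSMUSG00000035692; NCBIM37 chromosome 4, 155573533 to 155574927, minus strand) encodes the modifier. The mutant replicates 1 to 3 held 54, 78 and 54 counts, or 1.87, 2.15 and 2.01 CPM. WT replicates 1 to 3 held 33, 33 and 26 counts, or 0.91, 0.87 and 0.73 CPM. The lowest mutant library was at over 2 times the highest WT library. The log2 fold change was 1.26 ± 0.20 (SE; 95% interval 0.85 to 1.68; quasi-likelihood test with filterByExpr, adjusted p 0.00264). *Isg15* missed the CPM filter because replicate 1 of the *Adar1* E861A group was at 1.87 CPM. Counts this low carry a counting error of 11.3% to 19.6% per library, which is far below the difference between genotypes.

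*Usp18* (ENSMUSG00000030107; chromosome 6, 121195924 to 121220934, plus strand) encodes the protease that removes ISG15. It was the most changed member. *Adar1* E861A libraries held 59, 90 and 68 counts, or 2.04, 2.48 and 2.53 CPM. WT libraries held 29, 27 and 18 counts, or 0.80, 0.71 and 0.50 CPM. The genotypes were far apart, and WT replicate 3 was the lowest library. The log2 fold change was 1.80 ± 0.20 (SE; 95% interval 1.38 to 2.23; quasi-likelihood test, adjusted p 0.000273).

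*Rnf213* (ENSMUSG00000070327; chromosome 11, 119254414 to 119348732, plus strand) was counted most often, with 16967 bases of exon. *Adar1* E861A libraries held 46.3, 45.2 and 51.1 CPM and WT libraries 29.9, 28.4 and 27.4 CPM. The spread within each genotype was small beside the gap between them. Mean levels were 28.5 ± 1.24 CPM in WT and 47.6 ± 3.11 CPM in mutant brain (SD, n = 3). The log2 fold change was 0.74 ± 0.06 (SE; 95% interval 0.61 to 0.87; quasi-likelihood test, adjusted p 1.3e-05). Although its fold was smaller than that of *Isg15* or *Usp18*, *Rnf213* had the 11th smallest p-value of all 13649 genes tested. *Usp18* ranked 19th. In CPM, which is not scaled to transcript length, the rise of *Rnf213* was the largest of the members. Per kb of exon *Isg15* rose more, from a mean of 1.11 in WT to 2.66 in mutant brain, against 1.68 to 2.80 for *Rnf213*.

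*Herc6* (ENSMUSG00000029798; chromosome 6, 57530986 to 57615130, plus strand) encodes the main mouse ISG15 ligase. It was at 17.3, 15.1 and 19.3 CPM in *Adar1* E861A libraries and 13.2, 12.7 and 12.7 CPM in WT libraries. The WT libraries were nearly equal, and mutant replicate 2 was the closest to them. The log2 fold change was 0.42 ± 0.09 (SE; 95% interval 0.23 to 0.60), and the adjusted p of the quasi-likelihood test was 0.0523, just outside the threshold. With the replicate number as a block *Herc6* was called (log2 fold change 0.41, adjusted p 0.0247). It was also called with filterByExpr (adjusted p 0.0242) and without *Adar1* E861A replicate 2 (log2 fold change 0.50, adjusted p 0.00748).

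*Uba7* (ENSMUSG00000032596; chromosome 9, 107877895 to 107886387, plus strand) encodes the E1 enzyme. Its counts were 52, 72 and 75 in *Adar1* E861A libraries, or 1.80, 1.98 and 2.79 CPM. WT libraries held 52, 59 and 47 counts, or 1.44, 1.55 and 1.32 CPM. Mutant replicate 3 stood above the other two. The log2 fold change was 0.59 ± 0.20 (SE; 95% interval 0.17 to 1.01; quasi-likelihood test with filterByExpr, adjusted p 0.366), and without that library it was 0.39.

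*Ube2l6* (ENSMUSG00000027078; chromosome 2, 84638985 to 84650492, plus strand) encodes the E2 enzyme. *Adar1* E861A libraries were at 2.84, 3.83 and 3.39 CPM and WT libraries at 2.68, 2.89 and 2.60 CPM. Mutant replicate 1 lay within the WT range, so this is the member whose genotypes overlapped. The log2 fold change was 0.31 ± 0.15 (SE), with a 95% interval of -0.01 to 0.62 (quasi-likelihood test, adjusted p 0.558). Without mutant replicate 2 it was 0.18. The interval leaves room for no difference and for a rise of the size seen in *Herc6*.

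Without *Adar1* E861A replicate 1, the library with pituitary transcripts, the log2 fold changes were 1.90 for *Usp18*, 1.33 for *Isg15*, 0.76 for *Rnf213*, 0.72 for *Uba7*, 0.42 for *Ube2l6* and 0.42 for *Herc6*. The same 3 members were called. An exact two-sided permutation test on each member by itself gave p = 0.1 for the 5 members without overlap, which is the smallest p that 3 against 3 libraries allow, and p = 0.2 for *Ube2l6*.

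Levels were next compared between members, as CPM per kb of exon, since a long transcript collects more reads. In WT brain the order was *Herc6* (2.38 ± 0.05), *Rnf213* (1.68 ± 0.07), *Ube2l6* (1.37 ± 0.07), *Isg15* (1.11 ± 0.13), *Uba7* (0.45 ± 0.04) and *Usp18* (0.38 ± 0.09; SD, n = 3). The ligase was thus the most abundant transcript per length and the protease the least. *Uba7* and *Usp18* overlapped over libraries, and the other neighbours in this order did not.

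In *Adar1* E861A brain the order per kb was *Herc6* (3.19 ± 0.39), *Rnf213* (2.80 ± 0.18), *Isg15* (2.66 ± 0.18), *Ube2l6* (1.68 ± 0.25), *Usp18* (1.33 ± 0.15) and *Uba7* (0.69 ± 0.17; SD, n = 3). *Isg15* had moved past *Ube2l6*, and *Usp18* past *Uba7*, each without overlap over libraries. *Herc6* and *Rnf213*, *Rnf213* and *Isg15*, and *Ube2l6* and *Usp18* overlapped. Exon lengths ran from 756 bases in *Isg15* to 16967 bases in *Rnf213*, and the levels do not account for which isoforms were present.

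**Figure D2:**
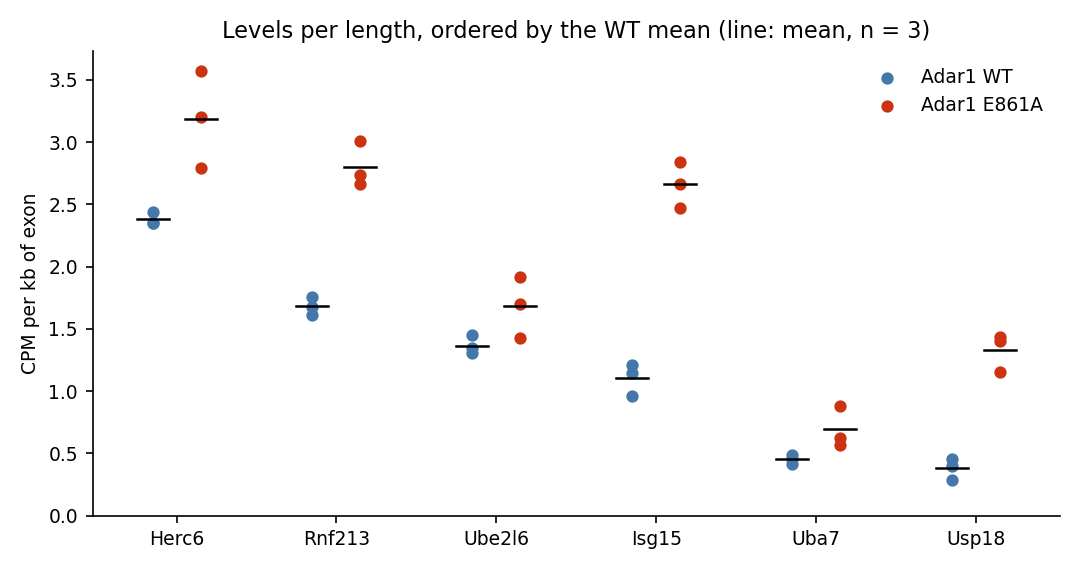
CPM per kb of exon (y axis) for each member, with 1 dot per library and a line at the mean (n = 3). Blue is *Adar1* WT and red *Adar1* E861A. Ordered by the WT mean from 2.38 for *Herc6* to 0.38 for *Usp18*, the mutant values of *Isg15* (mean 2.66) reach those of *Rnf213* (mean 2.80).

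The sizes of the members' differences were next compared. Each member was expressed as its log2 ratio to *Isg15* within a library. The ratio of *Usp18* to *Isg15* was 0.13, 0.21 and 0.33 in *Adar1* E861A libraries and -0.19, -0.29 and -0.53 in WT libraries, so the ratio was higher in each mutant library than in each WT library. Per kb of exon *Usp18* lay below *Isg15* in both genotypes. The difference between genotypes was 0.56 on the log2 scale.

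The ratios to *Isg15* of the other members were lower in *Adar1* E861A brain. The difference in log2 ratio was -0.98 for *Ube2l6*, -0.86 for *Herc6*, -0.68 for *Uba7* and -0.54 for *Rnf213*. For *Ube2l6*, for example, the log2 ratio was 0.60, 0.83 and 0.75 in mutant libraries against 1.56, 1.74 and 1.84 in WT libraries. For each of the 5 ratios the genotypes were separate. Each gave p = 0.1 by an exact two-sided permutation test, 0.1 after adjustment over the 5, the smallest value the design allows. All 5 ratios share the *Isg15* counts as denominator, and *Isg15* alone was already separate between genotypes. A gene with no change would therefore also tend to have a lower ratio in mutant brain. The share of all genes whose ratio to *Isg15* separates was not counted. The lower ratios thus show only that these members rose less than *Isg15*.

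Libraries of 1 genotype also differed among themselves. WT replicate 3 lay below the WT mean for 6 of 6 members, and *Adar1* E861A replicate 3 above the mutant mean for 6 of 6. The shares of all genes below or above their group mean in these libraries were not counted. Whether the deviations are particular to the members therefore cannot be told. Some of the members' deviations were smaller than counting error. *Isg15* in mutant replicate 3, for example, was 0.003 log2 units above the mean, with a counting error of 13.6%. *Adar1* E861A replicate 1 was below the mutant mean for 5 of the members. Replicate 2 of the mutants was split. It was the highest mutant library for *Isg15*, by 0.10 log2 units over the group mean, and for *Ube2l6*, by 0.20. It was the lowest for *Herc6*, by -0.19, and for *Rnf213*, by -0.07. The counting error of *Isg15* in mutant replicate 2 was 11.3%.

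*Isg15*, *Uba7*, *Ube2l6*, *Herc6* and *Usp18* were then set beside the other genes of their own classes. The classes hold enzymes that act on ubiquitin, SUMO, NEDD8 and other modifiers. Of 98 such relatives that passed the CPM filter, 0 were called by the quasi-likelihood test, and 1 was called in an analysis without a filter (*Sae1*, log2 fold change -0.24). The background share of calls in either direction was 0.506%. The median log2 fold change of the relatives was 0.01. A further 8 relatives, below the CPM filter, ran from -0.27 (*Usp51*) to 0.56 (*Ube2t*) with filterByExpr and were not called.

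Among modifiers, 12 tested genes had a median log2 fold change of -0.04 and reached at most 0.10. *Ubb*, a polyubiquitin gene, was at -0.11 ± 0.07 (SE). *Ubd*, which encodes the modifier FAT10, was counted 0 times in 6 of 6 libraries. Among 8 tested E1-like genes the extremes were -0.23 (*Sae1*, a subunit of the SUMO E1) and 0.12 (*Uba6*), and the ubiquitin E1 *Uba1* was at -0.05 ± 0.05. The estimates for *Isg15* and *Uba7* lay above those of the tested genes of their classes.

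The 29 tested E2 genes ran from -0.17 (*Ube2q1*) to 0.10. *Ube2l3*, a close relative of *Ube2l6* that serves ubiquitin, was at 26.9 ± 1.27 CPM in *Adar1* E861A brain and 26.8 ± 1.11 CPM in WT brain (SD, n = 3). Its log2 fold change was 0.00 with a 95% interval of -0.13 to 0.13. *Ube2l6* itself, not called at 0.31, was above each of these 29 but below *Ube2t*, an E2 gene of the DNA repair pathway, which was at 0.56 ± 0.29 (SE, adjusted p 0.653) with filterByExpr.

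Among HERC ligases, *Herc4* changed by 0.11 ± 0.05 and *Herc3* by 0.03 ± 0.04 (SE), both small HERC proteins like HERC6. Their 95% intervals were 0.01 to 0.21 and -0.06 to 0.12, below the estimate for *Herc6*. The 45 tested ubiquitin-specific proteases ran from -0.12 to 0.20 (*Usp40*, at an adjusted p of 0.441), against 1.80 for *Usp18*. *Usp40* was called without *Adar1* E861A replicate 2 (log2 fold change 0.30, adjusted p 0.0311).

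**Figure D3:**
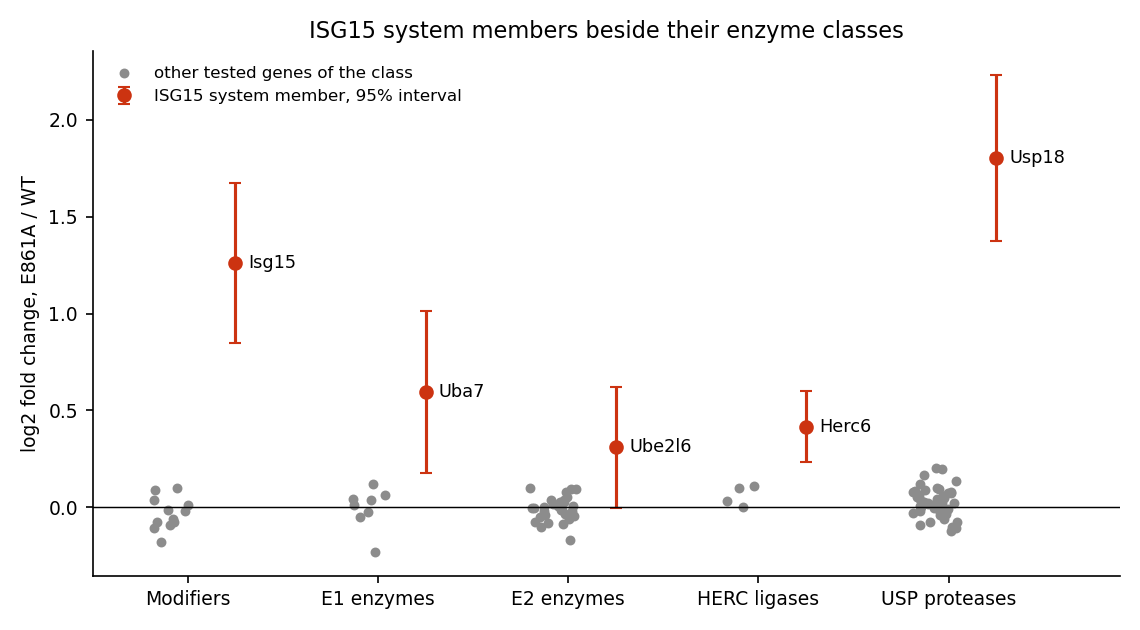
Log2 fold change between genotypes (y axis) of each ISG15 system member (red, with its 95% interval) beside the other tested genes of its class (grey, 1 dot per gene). Grey genes passed the CPM filter. They lie between -0.23 and 0.20, and the 5 members lie from 0.31 (*Ube2l6*) to 1.80 (*Usp18*).

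Genes close to the members on the chromosome were examined in the same way. No gene in GENCODE vM1 overlapped the span of any member. Within 100 kb lay 52 other genes, of which 32 were tested and 0 called. Their median log2 fold change was -0.01. *Agrn* (agrin), 1997 bases from *Isg15*, changed by -0.07 ± 0.05 (SE). *A730011L01Rik*, 3929 bases from *Rnf213*, changed by -0.06 ± 0.07, and *Pigy*, 21440 bases from *Herc6*, by 0.03 ± 0.08.

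Among neighbours that passed the CPM filter, the largest difference was in *Serping1*, 23384 bases from *Ube2l6*, which encodes the C1 inhibitor of the complement system. It was at 0.43 ± 0.12 (SE) with an adjusted p of 0.238. It was called in the analysis without a filter (log2 fold change 0.42, adjusted p 0.0411). A neighbour below the filter, *Slc43a1*, 28515 bases from *Ube2l6*, was at 0.61 ± 0.33 with filterByExpr (adjusted p 0.670). Next to *Usp18*, *Tuba8* was at -0.24 ± 0.12 with an adjusted p of 0.573.

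**Figure D4:**
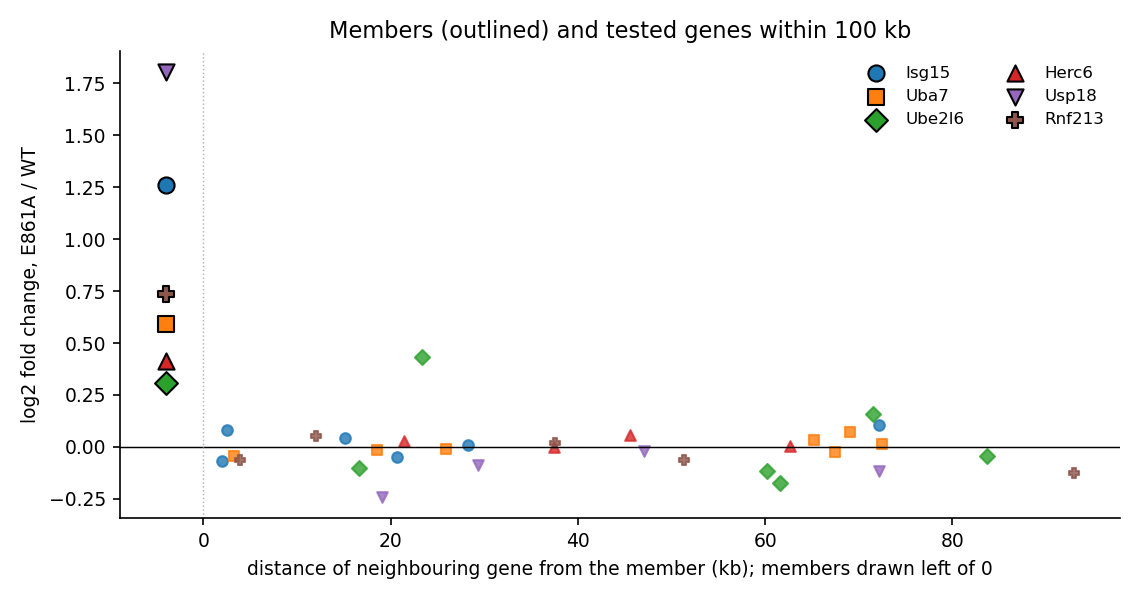
Log2 fold change (y axis) of genes that passed the CPM filter within 100 kb of a member against their distance in kb (x axis), with the members themselves outlined left of 0 and 1 symbol per member and its neighbours. Apart from *Serping1* at 0.43, the neighbours lie between -0.24 and 0.16.

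The factors that bind the ISRE had positive log2 fold changes for 6 of 6 tested genes, against 49.5% of all genes, and 2 were called, against 0.506% of all genes. One of them, *Irf7*, itself an interferon-induced factor, rose by 1.26 ± 0.23 on the log2 scale, with 3.36 ± 0.45 CPM in mutant and 1.41 ± 0.59 CPM in WT brain (SD, n = 3; quasi-likelihood test, adjusted p 0.0225). *Irf7* passed the CPM filter through its mutant libraries alone. It ranged from 0.96 without WT replicate 2 to 1.53 without WT replicate 1, and was not called without *Adar1* E861A replicate 3 or without WT replicate 3. *Irf9* was at 0.37 ± 0.10 (adjusted p 0.238, and 0.0466 with the replicate block) and *Stat2* at 0.24 ± 0.08 (adjusted p 0.345).

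Partners of ISG15 and USP18 formed a second list. It comprised further ligases, proteases that can also remove ISG15, the receptor chains for secreted ISG15 and the proteins that USP18 binds. Of 12 tested partners 0 were called by the quasi-likelihood test (median 0.05 on the log2 scale). The largest difference was in *Trim25*, an interferon-induced ligase, at 0.33 ± 0.09 (SE, adjusted p 0.211). *Ifnar2*, the receptor chain bound by USP18, was at 0.05 ± 0.08, and *Arih1*, another ISG15 ligase, at 0.05 ± 0.04. *Usp16*, *Usp5*, *Usp13*, *Usp14*, *Usp2* and *Usp21* lay between -0.10 and 0.05.

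Of 16 tested genes whose proteins are reported to be modified by ISG15, 3 rose. Among them were *Ifit1*, which encodes a protein that binds viral RNA, with a log2 fold change of 2.00 ± 0.11 (SE), and *Ddx58*, which encodes the RNA sensor RIG-I, at 0.71 ± 0.10. *Mx1*, an antiviral GTPase gene, failed the CPM filter and rose by 2.10 ± 0.36 with filterByExpr (adjusted p 0.00567). These named genes are interferon-induced themselves. *Eif2ak2*, also an interferon-induced gene, which encodes the kinase PKR, was at 0.36 ± 0.10 with an adjusted p of 0.264. The median over the 16 was 0.01. Over the union of factors, partners and targets, 4 of 31 tested genes were called (12.9%), against 0.506% over all genes, and 3 with 2 CPM in all 6 libraries, where *Irf7* was not tested.

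Among the 5 tested genes whose levels over the 6 libraries were most like the median of the tested members, the first 4 were *Ifi27*, *Col3a1*, *Cyb5r4* and *Ddx58*. Likeness was the root mean square difference of log2 CPM relative to the WT mean, which ran from 0.08 to 0.09 over these genes. The median was taken over the 4 members that passed the CPM filter, *Ube2l6*, *Herc6*, *Usp18* and *Rnf213*. *Usp18* lay far above it, at 1.63, 1.91 and 1.94 in the mutant libraries. So did *Isg15*, which was left out, at 1.17, 1.37 and 1.27. The median profile gave 0.56, 0.58 and 0.71 for the mutant libraries in order of replicate number and 0.05, 0.04 and -0.06 for the WT libraries. *Col3a1*, a collagen gene, followed it with 0.40, 0.58 and 0.71 and with 0.12, -0.08 and -0.05. *Ifi27* is an interferon-induced gene and *Cyb5r4* a reductase gene.

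Cell type markers were examined because whole brain mixes many cells, and fewer cells of a type cannot be told apart from less RNA per cell. Of 48 tested marker genes 0 were called by the quasi-likelihood test. Microglia markers summed to 166 to 178 CPM in *Adar1* E861A libraries and 180 to 183 CPM in WT libraries, and 3 of 9 had a positive log2 fold change. For macrophage and monocyte markers the sums were 12.8 to 15.2 and 11.8 to 14.7 CPM, and for lymphocyte markers 8.83 to 10.5 and 8.38 to 8.68 CPM. Blood markers summed to 26.5 to 37.3 and 30.3 to 51.5 CPM. Positive log2 fold changes were seen for 7 of 7 astrocyte, 1 of 7 neuron and 4 of 6 oligodendrocyte markers. The T cell genes *Cd3g* and *Cd3e* had 0 to 2 and 1 to 7 counts per library.

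Endothelial markers had lower values in the mutant, where the members had higher ones. They summed to 114 to 141 CPM in *Adar1* E861A libraries and 143 to 174 CPM in WT libraries, and 7 of 7 had a negative log2 fold change, with a median of -0.32. *Flt1*, a VEGF receptor of endothelium, was at -0.37 ± 0.08 (SE, adjusted p 0.0817). It was called with the likelihood ratio test (adjusted p 0.00336), DESeq2 (0.00225) and filterByExpr (0.0445), without a filter, and without *Adar1* E861A replicate 2 or WT replicate 2. Choroid plexus markers summed to 209 to 317 and 373 to 398 CPM, and 2 of 5 had a positive log2 fold change. Most of the sum was *Ttr*, with means of 247.7 CPM in mutant and 354.6 CPM in WT brain. *Ttr* was at -0.51 ± 0.12 (SE, quasi-likelihood test, adjusted p 0.124), and *Kcnj13* and *Aqp1* were at 0.12 and 0.09. *Ttr* was called with the likelihood ratio test (adjusted p 0.00666), the replicate block (0.0241), without a filter, and without *Adar1* E861A replicate 2 (0.0362). Without *Adar1* E861A replicate 1, the library with pituitary transcripts, *Ttr* fell by 0.33 (adjusted p 0.00458). *Slc1a2*, an astrocyte glutamate transporter, held most of the astrocyte sum, with means of 4165 CPM in mutant and 3630 CPM in WT brain. Its log2 fold change was 0.20 ± 0.06 (SE, quasi-likelihood test, adjusted p 0.261). *Slc1a2* was called with the likelihood ratio test (adjusted p 0.0341), DESeq2 (0.00314) and the replicate block (0.0374), and without a filter. The part of these differences in the members' values was not tested.

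The calls of *Isg15*, *Usp18* and *Rnf213* held in 15 of 15 alternative analyses each, with log2 fold changes of 1.17 to 1.33, 1.64 to 1.94 and 0.68 to 0.76. *Herc6* was called in 6 of 15, with 0.32 to 0.50. *Uba7* and *Ube2l6* were called in 0 of 15, with 0.39 to 0.72 and 0.18 to 0.42. For *Isg15* and *Uba7*, 2 of the 15 (filterByExpr, and 2 CPM in all 6 libraries) were the main filterByExpr fit itself, and for *Usp18* these 2 were the same fit. The members kept a positive log2 fold change in each of these analyses.

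**Figure D5:**
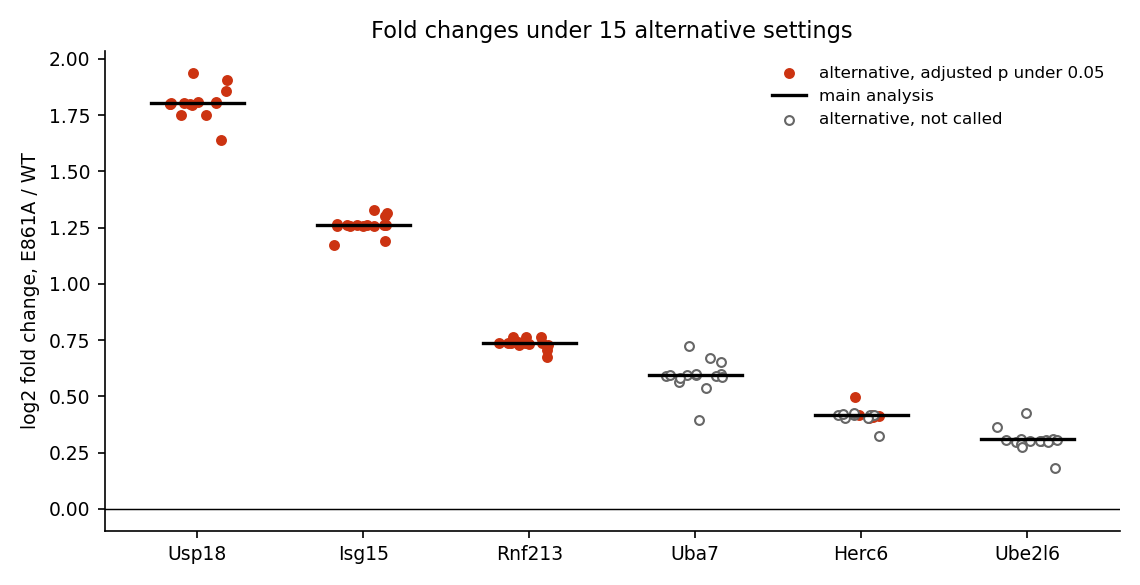
Log2 fold change (y axis) of each member under 15 alternative analyses (dots, red where the adjusted p was under 0.05 and open where it was not) and in the main analysis (line). *Usp18*, *Isg15* and *Rnf213* are red throughout, *Herc6* is mixed, and *Uba7* and *Ube2l6* are open throughout.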

How the data were processed

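Total RNA of whole brain was depleted of ribosomal RNA, made into stranded libraries and sequenced as paired reads. Per the labels, the methods and the submitters' processing notes, the authors trimmed reads with Trimmomatic 0.36, aligned them to mm9 (NCBIM37) with STAR 2.5.2a and deposited raw counts per gene. The strand column used is not given in the sources used here. The deposited CPM tables and the authors' own comparison, which holds fold changes and adjusted p-values, were not used. Positions and exon lengths came from GENCODE vM1, which held all 37310 gene identifiers.

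The test was run in R 4.3.3 (edgeR 4.0.16) on the 13649 genes that reached 2 CPM in 3 of 3 libraries for 1 genotype or both, with TMM scaling, the quasi-likelihood test and Benjamini-Hochberg adjustment over all genes. Called means an adjusted p under 0.05. Members below the filter were read from the same test with filterByExpr (19366 genes). CPM is the count divided by the library total and multiplied by 1000000. The standard error was the absolute log2 fold change divided by the square root of F.

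The members and lists were chosen with earlier results of these data known. Genes named are the members, fixed relatives, the called genes of each list (or its largest difference), and the 5 nearest profiles. Other list genes with values were chosen after their values were seen, and the values of a few are not reported here. Per the labels, the replicates were biologically independent and were sequenced in 1 run. Across 13649 genes, the deviation of a mutant library from its group mean correlated with that of the WT library of the same number, with r of 0.225, 0.336 and 0.116 (pseudocount 0.5 CPM). The reported tests are unpaired, and the fit with the replicate number as a block is an alternative. Libraries of different numbers were not compared in this way, so whether the numbers pair the libraries cannot be told. Alternatives were a likelihood ratio test, DESeq2 1.42.0, limma-voom (limma 3.58.1), RLE size factors, library totals, 3 filters, the replicate block and the omission of each library. Intervals cover the spread between libraries, and counting errors cover counting alone.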

Additional observations from a re-analysis of the deposited data

How the results depend on the processing

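The number of genes called over all tested, 69 in the main analysis, became 139 with the likelihood ratio test, 110 with filterByExpr, 376 without a filter, 42 with 2 CPM in all 6 libraries and 158 with the replicate block, and ranged from 42 (without *Adar1* E861A replicate 3) to 113 (without *Adar1* E861A replicate 2) when 1 library was left out, with 108 without WT replicate 2. The share of calls that were higher in *Adar1* E861A brain was 81.2%, 64.7% with the likelihood ratio test, 58.0% without a filter and 65.2% with the block. Marker genes called, 0 in the main analysis, numbered 3 with the likelihood ratio test, 2 with DESeq2, 1 with filterByExpr, 12 without a filter and 2 with the block, and from 0 to 3 when 1 library was left out. Relatives called went from 0 to 1 without a filter and ranged from 0 to 1 over omissions. Partners and targets went from 4 to 7 and neighbours from 0 to 1 without a filter. Partners and targets fell to 3, with *Irf7* lost, with 2 CPM in all 6 libraries, without *Adar1* E861A replicate 3 and without WT replicate 3. The cause was not tested for any of these. Members called stayed at 3 or became 4, the fourth being *Herc6*, in 15 of 15 alternatives. A member that missed a filter was read with filterByExpr, as *Usp18* was with 2 CPM in all 6 libraries. The replicate block changed no call among members other than *Herc6*. The ratios to *Isg15* kept their signs in each omission. *Isg15*, *Uba7* and *Usp18* had 18 to 90 counts per library.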
